A study of Mus musculus with 16 samples.

Results

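Transcripts of 10 neuropeptide precursor genes of the spinal dorsal horn (Tac1, Tac2, Penk, Pdyn, Sst, Npy, Calca, Grp, Nts and Cck) were followed in spinal cord of injured and uninjured mice. The genes were chosen by symbol, and all 10 were found among the 24411 genes of the deposited counts and of the deposited TPM, a transcript level scaled to gene length and library total. All 10 were among the 16091 genes tested, which are those whose mean TPM exceeded 1 in 1 or more conditions. RNA came from 16 female C57BL/6J mice, of which 7 were SCI + Atorvastatin, 7 SCI + Vehicle and 2 Uninjured Control. Mice of both SCI groups received a 0.25 mm lateral compression of the thoracic cord at 12 wk of age. From 2 wk after injury they were injected daily for 4 wk with atorvastatin at 10 mg/kg, a cholesterol-lowering drug, or with its vehicle of DMSO, PEG 400, Tween 80 and saline alone. A 5 mm piece of cord centred on the lesion was taken at 6 wk after injury, and the matching piece from the controls. The controls had no injury, vehicle or drug and were 12 wk old in the sample labels, which are followed here, whereas the methods of the study give an older age for the controls and a slightly later day of harvest for the injured mice. Injury, handling, vehicle and age cannot be told apart in a comparison with them. The piece holds white matter and ventral horn as well as dorsal horn.

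The dorsal horn is the part of the cord that receives touch, pain, itch and temperature signals from sensory neurons. Many of its interneurons, and many of the sensory axons that end on them, store peptides that are cut from longer precursors and act on receptors coupled to G proteins. Sst (somatostatin), Tac1 (substance P and neurokinin A), Tac2 (neurokinin B), Grp (gastrin-releasing peptide), Nts (neurotensin) and Cck (cholecystokinin) mark mostly excitatory interneurons, Pdyn (dynorphin) and Npy (neuropeptide Y) mostly inhibitory ones, and Penk (enkephalin) cells of both kinds. Calca encodes the calcitonin gene-related peptide, which is made by sensory neurons and motor neurons.

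Libraries held 14823292 to 25579826 counts on genes. The controls stood apart from the SCI mice in the number of genes at 0. Of 1391 tested genes that averaged 20 to 60 counts over the SCI mice, 77.9% and 79.2% had 0 counts in controls 1 and 2, and 63.8% in both, against at most 14.7% in any SCI mouse. Of 4862 genes that averaged 100 to 500 counts, 10.3% were at 0 in both controls and 27.8% in 1 of them, against at most 0.473% in any SCI mouse. The 7 liver marker genes summed to 4051 and 648 CPM (counts scaled to the library total) in controls 1 and 2 and to at most 6.44 CPM in any SCI mouse. The limit that a count of 0 allows by counting error alone was set at 3 counts, or 0.117 to 0.202 CPM by library.

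Short stretches of promoter are shown because 5 of the 8 members with a promoter in the RefSeq table hold the letters TGACG, read on either strand, between 250 bases before and 50 bases after the RefSeq transcript start. These letters are the core of the cyclic AMP response element, whose full form TGACGTCA was first described in the somatostatin gene. Of 32851 mouse promoters of the same length, 20.8% held TGACG on either strand and 1.79% held TGACGTCA, which includes TGACG on both strands. The capitals below mark the letters found, each stretch is written 5′ to 3′ on the strand of its gene (build GRCm38.p6), and Tac1 held the letters at 2 places.
Sst: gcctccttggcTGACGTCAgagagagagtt
Cck: tcctgctggactgCGTCAgcactgggtaaa
Calca: ggaagcacagaggTGACGcaatctgtctgg
Nts: aattagggaagatCGTCActttccatcaag
Tac1, distal: ttccctaaaattgCGTCAtttcgaacacaa
Tac1, proximal: ggctctacaggctCGTCAcgcctgagataa
The Sst stretch lies at chr16:23890874-23890903 on the minus strand, and its capitals begin at position -48 from the RefSeq start. The Cck stretch is at chr9:121495725-121495754 (minus strand, position -47), and that of Calca at chr7:114636406-114636435 (minus strand, position -65). The Nts stretch is at chr10:102490568-102490597 (minus strand, position -166). The stretches of Tac1 are at chr6:7554851-7554880 (plus strand, position -197) and chr6:7555005-7555034 (plus strand, position -43). The RefSeq start is also the start of the GENCODE gene for Cck and Calca, but it lies inside the GENCODE gene for Sst, Nts and Tac1. Counted from the GENCODE gene start, the capitals begin 66 bases inside the gene for Sst, at position -98 for Nts, at -15 for the distal letters of Tac1 and 139 bases inside the gene for the proximal ones. A match in letters is a description of the sequence and was not tested for binding.

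On the TPM scale Sst and Penk led the 10 genes in every one of the 16 mice. Sst had 388 ± 93.0 TPM in SCI + Vehicle and 325 ± 59.6 TPM in SCI + Atorvastatin (SD, n = 7 each), against 636 and 529 TPM in the controls. Penk had 329 ± 58.3 TPM in SCI + Vehicle, 280 ± 34.1 TPM in SCI + Atorvastatin (SD, n = 7 each) and 298 and 369 TPM in the controls. Sst was above Penk in 13 of 14 SCI mice and in both controls. The ratio of Sst to Penk TPM was 0.936 to 1.55 in the SCI mice, 1.44 in control 2 and 2.14 in control 1, so that 1 of the controls lay inside the range of the injured mice. Together the pair took 63.3% to 73.0% of the summed TPM of the 10 genes in SCI mice.

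Below that pair, Cck had 78.7 ± 21.9 TPM in SCI + Vehicle (SD, n = 7). Tac2 (59.3 ± 15.9 TPM), Calca (56.5 ± 23.5 TPM) and Npy (56.4 ± 14.7 TPM) followed there within each other's SD. Tac2 was above Calca in 3 of 7 mice and Calca above Npy in 3 of 7 mice, so these neighbours had no fixed order. Nts (29.9 ± 6.75 TPM) was above Tac1 (14.8 ± 5.59 TPM) in 7 of 7 mice. Pdyn (11.5 ± 1.93 TPM) and Grp (6.93 ± 2.55 TPM) were the lowest. In SCI + Atorvastatin the order was the same except that Calca (55.1 ± 10.3 TPM) came before Tac2, in 6 of 7 mice.

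**Figure D1:**
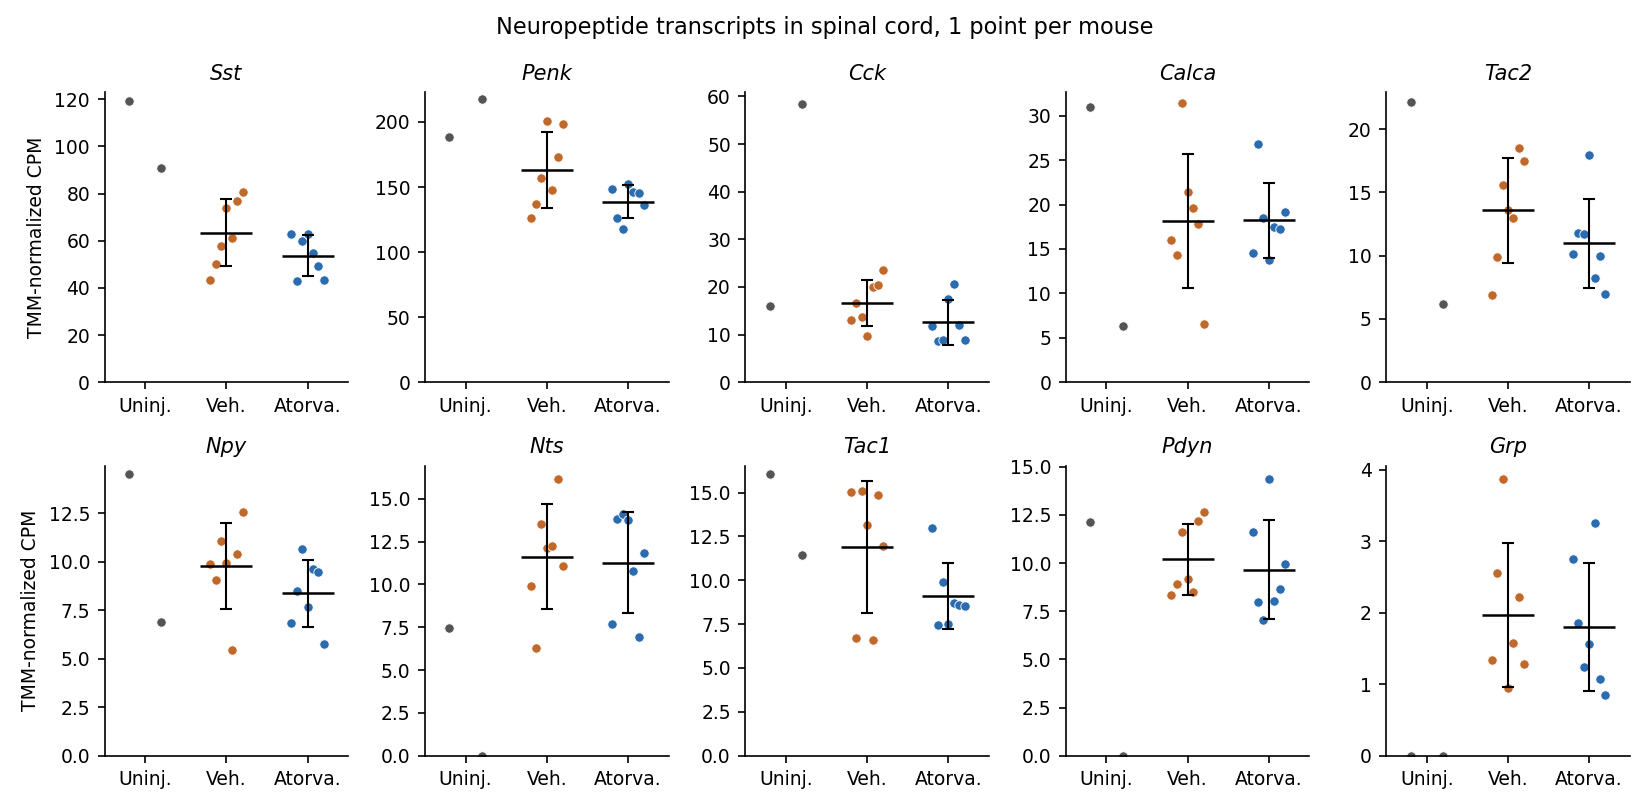
CPM of the 10 neuropeptide genes after TMM scaling (vertical axes, from 0), 1 point per mouse, for Uninjured Control (n = 2), SCI + Vehicle (n = 7) and SCI + Atorvastatin (n = 7); the horizontal lines and bars give mean and SD of the SCI groups. All SCI mice lie below both controls for Sst, the controls are far apart for Cck, Calca, Tac2, Pdyn and Nts, and both controls are at 0 for Grp.

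Sst (chr16:23889573-23890958, minus strand, build mm10) was lower in both SCI groups than in the controls, with no overlap. The controls had 119.3 and 90.7 CPM of Sst. SCI + Vehicle mice ran from 43.4 to 80.6 CPM with a median of 61.3, and SCI + Atorvastatin mice from 42.8 to 62.8 CPM with a median of 54.9. All 14 SCI mice were therefore below the lower control, a separation that 10.7% and 14.2% of all tested genes showed in SCI + Vehicle and SCI + Atorvastatin. The log2 fold change was -0.74 (SE 0.216, edgeR adjusted p = 0.0253) in SCI + Vehicle vs. Uninjured Control and -0.96 (SE 0.178, edgeR adjusted p = 0.00196) in SCI + Atorvastatin vs. Uninjured Control. The first of these calls was lost without SCI + Vehicle replicate 2 (edgeR adjusted p = 0.0554), without replicate 3 (0.0591), without control 1 (0.118) and with limma on log2(TPM + 1) (0.0873), each time with Sst still lower. In bulk tissue, fewer cells of a type and less RNA per cell cannot be told apart.

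General neuronal markers moved with Sst. The 10 neuron genes summed to 10756 and 11765 CPM in the controls, 6078 to 9710 CPM in SCI + Vehicle and 5753 to 7194 CPM in SCI + Atorvastatin, also without overlap. Per 1000 CPM of these neuron genes, Sst stood at 11.1 and 7.71 CPM in the controls, 6.37 to 12.6 in SCI + Vehicle and 6.96 to 9.69 in SCI + Atorvastatin, so that both SCI ranges include control 2. This ratio was chosen after the values were seen and carries no test. It depends on the genes summed, and Nefl alone gave 3428 and 3757 CPM of the sums in the controls. The neuron genes are not particular to the dorsal horn, so the ratio is no level of Sst per dorsal horn neuron.

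Penk (chr4:4133531-4138819, minus strand) was lower in SCI + Atorvastatin than in the controls, with no overlap, and did not pass the test in SCI + Vehicle. The controls had 188.6 and 218.0 CPM. SCI + Vehicle mice had 126 to 201 CPM with a median of 157, and 5 of 7 were below control 1 and 7 of 7 below control 2. SCI + Atorvastatin mice had 118 to 152 CPM with a median of 145, all below both controls. The log2 fold change was -0.34 (SE 0.168, edgeR adjusted p = 0.160) with vehicle and -0.54 (SE 0.111, edgeR adjusted p = 0.00348) with atorvastatin. On log2(TPM + 1) the second value was -0.25 (limma adjusted p = 0.179). Per 1000 CPM of the neuron genes, Penk was 17.54 and 18.53 CPM in the controls. SCI + Vehicle mice had 18.49 to 30.02 CPM on this scale, the lowest of them just below control 2. SCI + Atorvastatin mice had 19.1 to 23.5 CPM, all above both controls. This ratio too was chosen after the values were seen and carries no test. It likewise depends on the genes summed and is no level of Penk per dorsal horn neuron. A gene of the other strand, A830012C17Rik, overlaps Penk in the annotation.

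Pdyn (chr2:129686565-129699844, minus strand) and Npy (chr6:49822710-49829507, plus strand) were not called in either comparison with the controls. Pdyn had 242 counts in control 1 and 0 in control 2 (12.1 and 0 CPM). SCI + Vehicle mice had 8.36 to 12.6 CPM of Pdyn with a median of 9.19, and SCI + Atorvastatin mice 7.04 to 14.4 CPM with a median of 8.65. The SCI mice thus lay around control 1 and above control 2, and the log2 fold change in SCI + Vehicle turned from 0.74 to -0.27 when control 2 was left out. Of the genes that averaged 100 to 500 counts, as Pdyn and Nts do, 27.8% were at 0 in 1 of the controls. Npy had 14.5 and 6.89 CPM in the controls, 5.45 to 12.6 CPM in SCI + Vehicle and 5.77 to 10.7 CPM in SCI + Atorvastatin. Its log2 fold changes were -0.14 (95% CI -1.09 to 0.81) and -0.35 (95% CI -1.20 to 0.51).

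Cck (chr9:121489824-121495694, minus strand) was called lower with atorvastatin, but the value rests on 1 control. The controls had 16.0 and 58.4 CPM, from 319 and 1289 counts. SCI + Vehicle mice had 9.67 to 23.5 CPM with a median of 16.6, and SCI + Atorvastatin mice 8.59 to 20.5 CPM with a median of 11.7. All SCI mice were below control 2, while 4 of 7 SCI + Vehicle and 2 of 7 SCI + Atorvastatin mice were above control 1. The log2 fold change was -1.18 (SE 0.428, edgeR adjusted p = 0.0608) in SCI + Vehicle and -1.56 (SE 0.455, edgeR adjusted p = 0.0209) in SCI + Atorvastatin. In SCI + Vehicle, Cck was called with DESeq2 (-1.19, DESeq2 adjusted p = 0.0403) and with all 3 groups in 1 fit (-1.16, edgeR adjusted p = 0.0301). Without control 2 the values became 0.047 and -0.35, and with limma on log2(TPM + 1) the second was -0.84 (limma adjusted p = 0.250).

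The tachykinin genes were not called. Tac1 (chr6:7554879-7565834, plus strand) had 16.1 and 11.4 CPM in the controls, 6.59 to 15.1 CPM in SCI + Vehicle (median 13.1) and 7.46 to 13.0 CPM in SCI + Atorvastatin (median 8.60). All 14 SCI mice were below control 1 and 6 of 7 SCI + Atorvastatin mice were also below control 2. The log2 fold changes of Tac1 were -0.22 (95% CI -1.16 to 0.73) and -0.58 (95% CI -1.30 to 0.13, edgeR adjusted p = 0.179). Tac2 (chr10:127724478-127731768, plus strand) had 22.1 and 6.16 CPM in the controls, and every SCI mouse lay between them, with 6.93 to 18.5 CPM in SCI + Vehicle and 6.99 to 17.9 CPM in SCI + Atorvastatin. On log2(TPM + 1), the direction of Tac2 turned in both comparisons. Without control 1 it turned to 1.13 and 0.84, not called (edgeR adjusted p = 0.0756 and 0.107). Without control 2 both genes were called lower in SCI + Atorvastatin, Tac1 by -0.82 and Tac2 by -1.01 on the log2 scale (edgeR adjusted p = 0.0345 and 0.0237).

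Nts and Grp are 2 markers of excitatory interneurons with zeros among the controls. Nts (chr10:102481756-102490486, minus strand) had 149 and 0 counts in the controls, which is 7.48 and 0 CPM. SCI + Vehicle mice had 6.26 to 16.1 CPM of Nts with a median of 12.1, and SCI + Atorvastatin mice 6.95 to 14.1 CPM with a median of 11.9. In each group 6 of 7 mice were above control 1. The log2 fold changes were 1.63 (95% CI -1.04 to 4.30, edgeR adjusted p = 0.340) and 1.60 (95% CI -1.09 to 4.29, edgeR adjusted p = 0.329). With limma on log2(TPM + 1) Nts passed the test in both comparisons (limma adjusted p = 0.0284 and 0.0254). Without control 1 it was also called higher in both (edgeR adjusted p = 8.59e-06 and 1.02e-06), but the control left had 0 counts, so that the fold is no measure of size. Without control 2 the values were 0.62 and 0.59 (edgeR adjusted p = 0.273 and 0.216).

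Grp (chr18:65872820-65886596, plus strand), whose peptide relays itch in the dorsal horn, had 0 counts and 0 TPM in both controls. SCI mice had 14 to 90 counts, which is 0.953 to 3.87 CPM in SCI + Vehicle (median 1.58) and 0.853 to 3.26 CPM in SCI + Atorvastatin (median 1.56). If each control is set to the floor of 3 counts, Grp was 13.9-fold higher in SCI + Vehicle and 12.8-fold higher in SCI + Atorvastatin. The floor covers counting error only, and zeros were common in the controls at this level, so these folds are no lower bound. Grp was called higher in both comparisons (edgeR adjusted p = 0.00303 and 0.00128), from fits to the counts of 0 and not to the floor. Grp passed the TPM filter only through the SCI groups, where it was high. It was not tested when a mean TPM above 1 was required in every condition. With voom group weights it was called in neither comparison with the controls (voom adjusted p = 0.587 in SCI + Vehicle). With a mean of 43.8 counts in SCI mice, Grp belongs to the genes of 20 to 60 counts described above, of which 63.8% were at 0 in both controls. The part of these zeros in the call was not tested. An antisense gene, AC152076.4, overlaps Grp.

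Calca (chr7:114631478-114636357, minus strand) was not called, and its controls were as far apart as the injured mice. The controls had 31.0 and 6.34 CPM. SCI + Vehicle mice had 6.60 to 31.4 CPM with a median of 17.8, and SCI + Atorvastatin mice 13.8 to 26.8 CPM with a median of 17.5. The log2 fold changes were -0.045 and -0.029, and both turned positive, to 1.51 and 1.53, without control 1. With atorvastatin Calca was then called higher (edgeR adjusted p = 0.00165), and without control 2 it was called lower (-0.77, edgeR adjusted p = 0.0288). The highest value was that of SCI + Vehicle replicate 3, in which the 11 sensory neuron markers summed to 73.0 CPM, against 13.1 to 23.5 CPM in the other SCI + Vehicle mice. In the controls these markers summed to 3.82 and 7.52 CPM, and 10 of the 11 were at 0 in both. The 6 motor neuron markers summed to 172 CPM in SCI + Vehicle replicate 3, in a group range of 116 to 174 CPM. The part of sensory or motor neuron RNA in the level of Calca was not tested. Reads of Calca may be shared with its near copy Calcb.

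**Figure D2:**
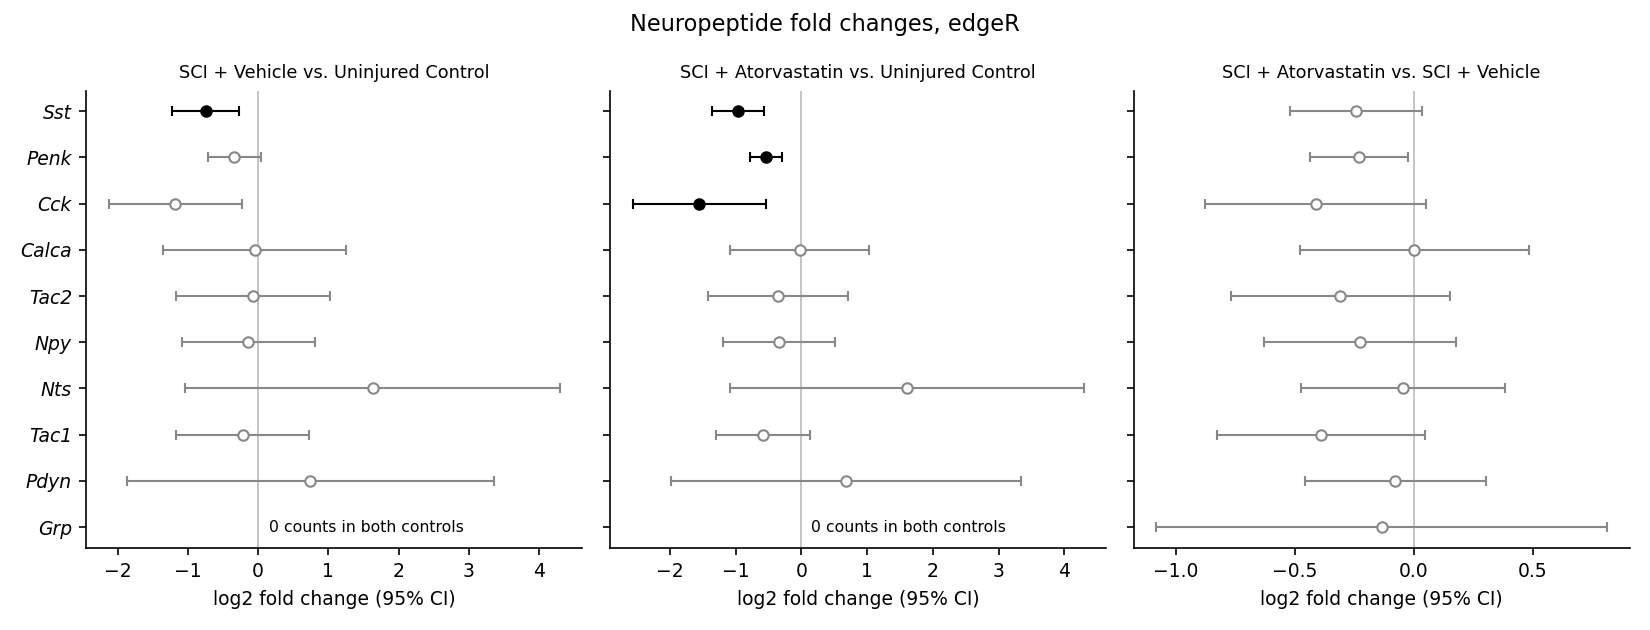
Log2 fold changes of the 10 genes with 95% confidence intervals from edgeR (horizontal axes, on a separate scale in each panel) in the 3 comparisons; filled points were called, and Grp is left out of the comparisons with the controls because both had 0 counts. Sst is filled in both comparisons with the controls, Penk and Cck in that of SCI + Atorvastatin, and none in SCI + Atorvastatin vs. SCI + Vehicle.

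With DEGs defined by an edgeR adjusted p below 0.05 and a change above 25%, SCI + Vehicle vs. Uninjured Control gave 2 of the 10 genes, Sst lower and Grp higher. In this comparison 29.8% of all tested genes were called, 9.91% lower and 19.9% higher. In SCI + Atorvastatin vs. Uninjured Control, 4 of 10 were called, with Sst, Penk and Cck lower and Grp higher, where 38.9% of all tested genes were called, 14% lower and 24.9% higher. The share of the peptide genes called was near that of all genes in both comparisons. The median log2 fold change of the 10 genes was -0.10 and -0.35, against 0.17 and 0.21 for all tested genes. Setting Grp to its fold over the floor of 3 counts could not move this median, since Grp had the highest fold change of the 10 either way. Groups did not overlap for 2 and 3 of the 10 genes, against 35.6% and 44% of all genes. The comparisons share the same 2 controls and are not independent of each other. Without control 1, 4 and 7 of the 10 genes were called, against 47.7% and 60.3% of all genes, and Sst was then not among those of SCI + Vehicle. Without control 2, 2 and 6 were called, against 48.5% and 61.1% of all genes. With voom and a weight for each group, none of the 10 was called in either comparison, where 0.814% and 0.907% of all genes were, while the log2 fold changes of Sst were -0.76 and -0.96 and that of Penk with atorvastatin was -0.54. With DESeq2 and with all 3 groups in 1 fit, 3 of the 10 were called with vehicle (Cck, Grp and Sst) and 4 with atorvastatin.

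The effect of the drug after injury was examined in SCI + Atorvastatin vs. SCI + Vehicle, where a call needed an unadjusted p below 0.001 and a change above 25%. None of the 10 genes was called by edgeR, 1 had an unadjusted p below 0.05, and the background was 0.106% and 7.03% of all tested genes. DESeq2 also called none. Penk was the 1 gene, at 139 ± 12.6 CPM with atorvastatin and 163 ± 29.1 CPM with vehicle (SD, n = 7 each). Every SCI + Atorvastatin mouse was below the SCI + Vehicle median for Penk, although the groups overlapped. Its log2 fold change was -0.23 (95% CI -0.44 to -0.02), with an unadjusted p of 0.0302 and an adjusted p of 0.693 in edgeR's fit across all genes.

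Lower means with atorvastatin were found for 9 of the 10 genes, against 50.3% of all tested genes, and their median log2 fold change was -0.23 against -0.0014 for all genes. The 10 genes were measured in the same mice and are not independent. Cck differed by -0.41 (95% CI -0.88 to 0.05) and Tac1 by -0.39 (95% CI -0.82 to 0.05). Sst differed by -0.24 (95% CI -0.52 to 0.04) and Tac2 by -0.31 (95% CI -0.77 to 0.15). These intervals include 0 and also include decreases of more than 25%. Calca was 18.2 ± 4.25 CPM with atorvastatin and 18.2 ± 7.55 CPM with vehicle, a difference of 0.0027 (95% CI -0.48 to 0.48). All 10 neuron markers likewise had lower means with atorvastatin, with summed levels of 6420 ± 448 CPM and 7181 ± 1239 CPM (SD, n = 7 each). All 5 fibroblast markers had higher means, with summed levels of 920 ± 375 CPM with atorvastatin and 524 ± 290 CPM with vehicle. The part of these cell types in the peptide values was not tested.

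Among the receptors of the peptides, calls in the higher direction all came from genes at 0 in the controls. Of 18 tested receptor genes, 5 were called higher and 0 lower in SCI + Vehicle vs. Uninjured Control, and 5 higher and 1 lower in SCI + Atorvastatin vs. Uninjured Control. Over all tested genes, 19.9% and 24.9% were called higher in these comparisons, and 9.91% and 14% lower. The 5 higher were the same in both: Oprk1, the dynorphin receptor, Grpr, the receptor of gastrin-releasing peptide, the neuropeptide Y receptors Npy2r and Npy5r, and Sstr4, a somatostatin receptor named after its values were seen. All 5 had 0 counts in both controls and so passed the TPM filter only through the SCI groups. Their means in SCI + Vehicle were between 2.49 CPM for Sstr4 and 5.15 CPM for Oprk1. The 1 lower was Tacr1, the substance P receptor, with 34.1 and 16.3 CPM in the controls and 10.6 ± 2.65 CPM in SCI + Atorvastatin (SD, n = 7), a log2 fold change of -1.24 (edgeR adjusted p = 0.0182). In SCI + Vehicle it was 12.6 ± 3.52 CPM (SD, n = 7), a log2 fold change of -1.01, not called. Of the 8 receptor genes with counts in both controls, none was called in SCI + Vehicle.

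Among genes that cut, amidate or package peptide precursors, only some were called, and those were lower. The gene of the amidating enzyme was not called, at 0.0013 with vehicle and 0.17 with atorvastatin on the log2 scale. Of 12 tested, 4 were called lower and 0 higher with vehicle, and 6 lower and 0 higher with atorvastatin, and all 12 had counts in both controls. The shares over all tested genes were 9.91% and 14% lower, and 19.9% and 24.9% higher. Pcsk1n, an inhibitor of prohormone convertase 1, had 750 and 602 CPM in the controls and 327 ± 103 CPM in SCI + Vehicle (SD, n = 7), a log2 fold change of -1.06 (edgeR adjusted p = 0.0177). Chga, the granin chromogranin A of dense-core vesicles, had 702 and 628 CPM in the controls and 420 ± 71.9 CPM in SCI + Vehicle (SD, n = 7), a log2 fold change of -0.68 (edgeR adjusted p = 0.00693). Chgb and Scg5 were the others called with vehicle, at -0.33 and -0.56. Over the 12 genes the log2 fold change had a median of -0.31 in SCI + Vehicle and -0.45 in SCI + Atorvastatin.

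Among 18 genes listed as markers of dorsal horn interneurons, 7 were called lower and 1 higher with vehicle, and 8 lower and 0 higher with atorvastatin. All tested genes were called lower in 9.91% and 14% of cases, and higher in 19.9% and 24.9%. Lmx1b, a transcription factor of excitatory dorsal horn neurons, had 53.6 and 36.6 CPM in the controls and 11.7 ± 5.14 CPM in SCI + Vehicle (SD, n = 7), a log2 fold change of -1.96 (edgeR adjusted p = 0.00676). Slc32a1, the vesicular transporter of GABA and glycine, had 305 and 231 CPM in the controls and 121 ± 35.7 CPM in SCI + Vehicle, a log2 fold change of -1.16 (edgeR adjusted p = 0.00666). The marker called higher was Gbx1, with 9 and 0 counts in the controls. The 18 genes summed to 1908 and 1673 CPM in the controls and 1077 to 1542 CPM in SCI + Vehicle, without overlap. The piece also held ventral horn, so these values cannot be assigned to dorsal horn neurons alone. The median over the 18 was -0.50 on the log2 scale in SCI + Vehicle and -0.59 in SCI + Atorvastatin. Of the 10 general neuron markers 7 and 8 were called lower, and of 6 motor neuron markers 2 and 3. No gene of the receptor, processing, dorsal horn, neuron or motor neuron lists was called in SCI + Atorvastatin vs. SCI + Vehicle.

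**Figure D3:**
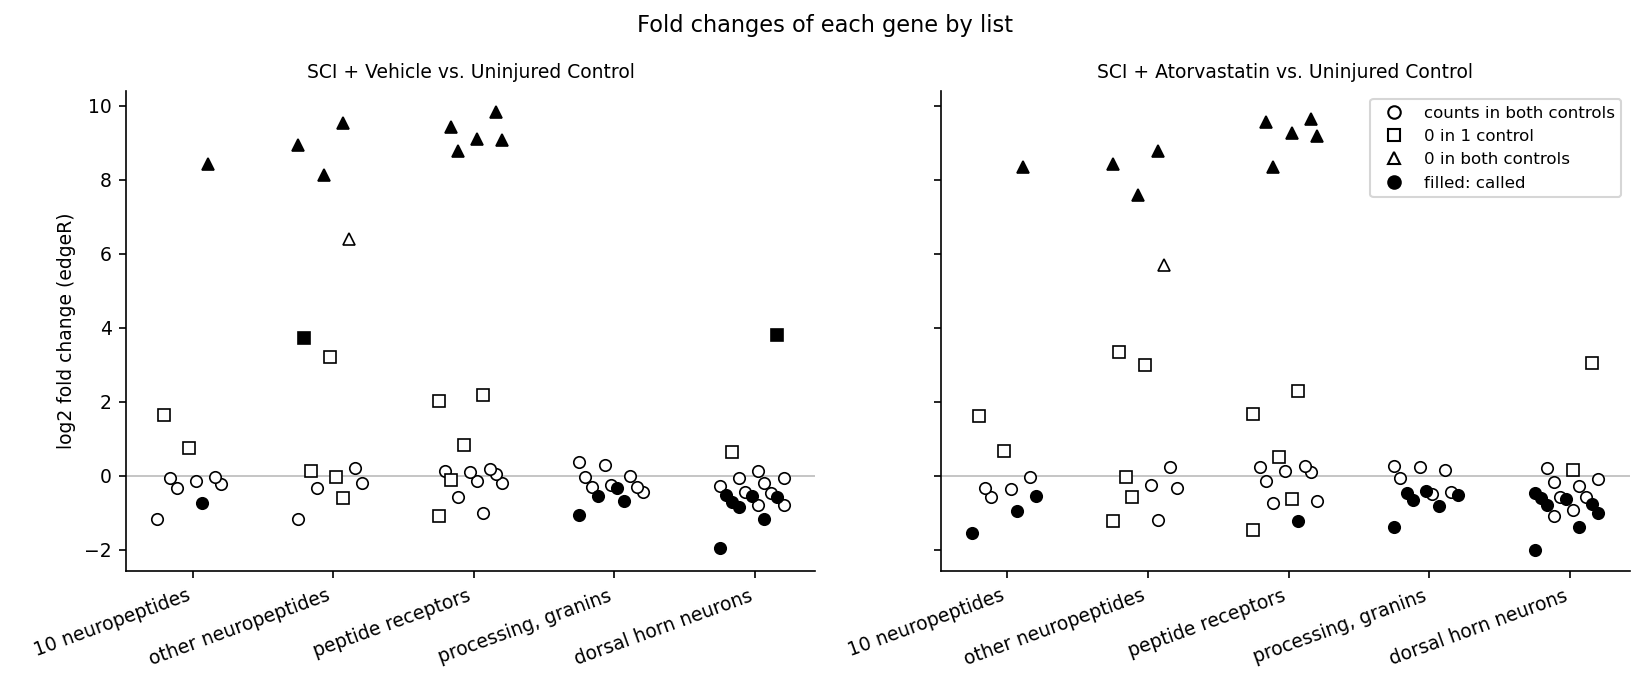
Log2 fold changes from edgeR (vertical axis) of each tested gene in 5 lists, for SCI + Vehicle and SCI + Atorvastatin vs. Uninjured Control, with filled points for called genes and the shape giving how many of the 2 controls had 0 counts. The filled points above 0 are triangles or squares, which are genes at 0 in both or in 1 of the controls, and all filled points below 0 are circles, which are genes with counts in both controls.

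Covariation of the peptide genes from mouse to mouse was examined over the 14 SCI mice, on log2(CPM + 0.5) after the mean of each treatment group was subtracted. Grp was left out for its mean below 50 counts, and the other 9 genes gave 36 pairs. Of these, 27 had a positive r, with a median of 0.24, and 2 passed a permutation test after adjustment. Sst and Penk had r = 0.765 (permutation p = 0.00155, adjusted p = 0.0389) and rho = 0.837 (permutation p = 0.00034, adjusted p = 0.0122). Their r was 0.941 within SCI + Vehicle, 0.320 within SCI + Atorvastatin and 0.655 without the 2 mice farthest from the median. Sst and Tac2 had r = 0.741 (permutation p = 0.00216, adjusted p = 0.0389), but rho = 0.657 did not pass (permutation p = 0.0131, adjusted p = 0.118). Their r was 0.892 within SCI + Vehicle, 0.503 within SCI + Atorvastatin and 0.610 without the 2 farthest mice. On log2(TPM + 1) no pair passed. Calca had a negative r with 6 of the other 8 genes, the lowest with Cck (r = -0.541, permutation p = 0.0396, adjusted p = 0.252; rho = -0.556, permutation p = 0.0412, adjusted p = 0.267).

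**Figure D4:**
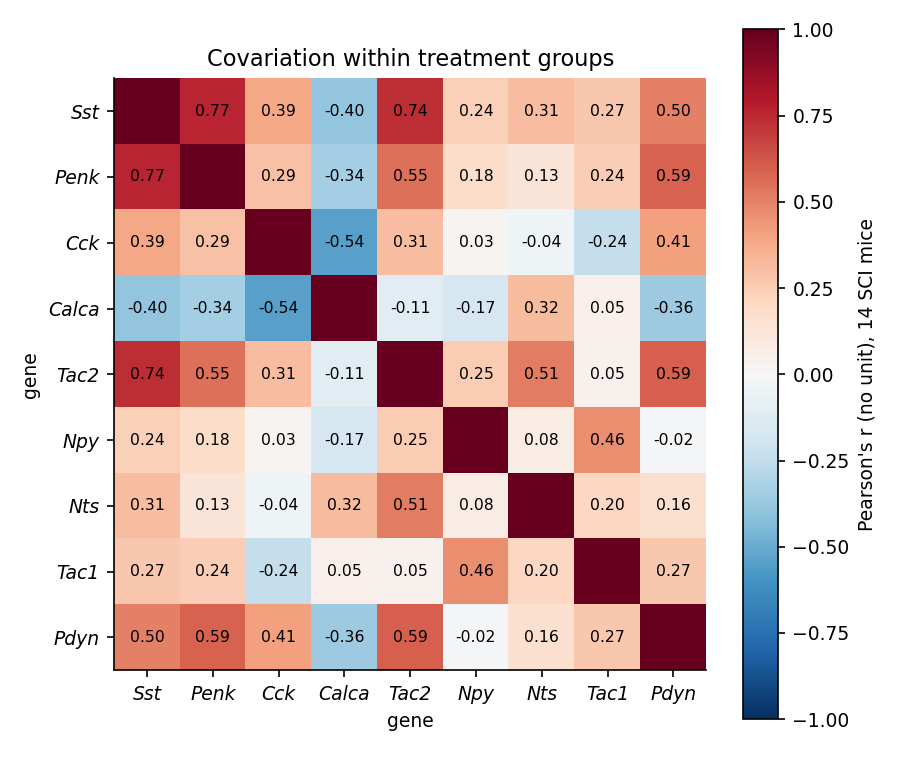
Pearson's r for each pair of 9 neuropeptide genes over 14 SCI mice, on log2(CPM + 0.5) with the treatment group means subtracted; both axes list the genes and red is positive. Sst stands highest with Penk (0.77) and with Tac2 (0.74), and Calca is negative with most of the others.

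Among 14000 tested genes with at least 50 counts on average in SCI mice, those most like Sst across the 14 mice were Prkcb (r = 0.933), a neuronal protein kinase C, Sv2a (r = 0.915), a synaptic vesicle protein, and Hap1 (r = 0.912). The gene most like Penk was Atg9a (r = 0.938), an autophagy protein, followed by Ap3b2 (r = 0.879), a neuronal vesicle adaptor subunit, and Dock3 (r = 0.876). For Calca it was Bcam (r = 0.917), for Tac1 Supt4a (r = 0.891) and for Npy the translation initiation factor gene Eif3i (r = 0.887). The highest r was 0.883 for Cck, with Ddit4l, 0.880 for Tac2, with Snrk, 0.842 for Nts, with Rapsn, and 0.819 for Pdyn, with AA388235. These are the highest of many values over 14 mice that share library and depth, and they are given as a description.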

How the data were processed

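Spinal cord RNA-seq libraries of 16 mice were analysed, made with a kit that keeps strand. Per the labels, the authors used FastQC 0.12.1, Trimmomatic 0.38, STAR 2.5.4b and RSEM 1.3.1 with build mm10. The authors deposited raw whole-number counts per gene, with no normalization, and TPM, which are normalized for gene length and depth. The step that gave whole-number counts is not given in the sources used here. Groups came from the sample labels, which call the samples biological replicates.

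Genes whose mean TPM exceeded 1 in any condition (16091) entered the tests. The quasi-likelihood test of edgeR 4.0.16 (R 4.3.3) was run on the counts with TMM scaling, on the pair of groups compared, with Benjamini-Hochberg adjustment over all tested genes. A call needed an absolute log2 fold change above 0.322, with an adjusted p below 0.05 against the controls or an unadjusted p below 0.001 between treatments. CPM are scaled by TMM. The alternatives were DESeq2 1.42.0, its size factors, all 3 groups in 1 fit, other gene filters, limma 3.58.1 on log2(TPM + 1) and log2(TPM + 0.1), voom with group weights, the replicate number as a block and each mouse left out. Correlations used two-sided permutation tests of 100000 resamples. The floor of 3 counts covers counting error only. The fits were tried on simulated counts that held no excess of zeros in the controls. That trial therefore does not bear on how such zeros affect the calls.

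Members and gene lists were chosen with earlier results of these data known. All 10 members are named. From the receptor, processing, other neuropeptide and dorsal horn lists, up to 4 called genes of smallest p per direction and comparison could be named, and for each member with at least 50 counts up to 3 genes of highest r. Promoter sequences are from RefSeq (GRCm38.p6), which gave 8 of the 10 genes a promoter used here. Gene positions are from GENCODE on mm10, and promoter positions are counted from the RefSeq starts.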

Additional observations from a re-analysis of the deposited data

Results flagged for a closer look

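In 4 of 40 sets of values (the 10 genes, CPM and TPM, in each SCI group), 1 mouse stood apart from the other 6 by the gap to its nearest neighbour, where chance gives about 1 in 20. SCI + Atorvastatin replicate 2 had the highest Calca of its group, at 26.8 CPM and 76.2 TPM. SCI + Atorvastatin replicate 4 had the lowest Tac1 of its group, at 5.27 TPM, and the highest Tac2, at 90.3 TPM, while its CPM of both genes did not pass this rule. Its Tac2 was the highest of the group in CPM too, at 17.9 CPM against 11.8 CPM in the next mouse.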

How the results depend on the processing

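Comparisons with uninjured cord rest on 2 controls. Of 267 values of single peptide genes under alternatives other than leaving out a mouse, 229 kept direction and side of the threshold, 18 lost their call, 6 gained one and 14 turned direction. The number of peptide genes called was 2 with vehicle, and 3 with DESeq2 and with all 3 groups in 1 fit, 1 when a mean TPM above 1 was required in every condition, 0 with voom group weights and 0 with the replicate block. With atorvastatin it was 4, and 0 with voom group weights and 0 with the replicate block. Over all genes the stricter filter, voom group weights and the block gave 2394, 131 and 27 calls instead of 4789 with vehicle. With atorvastatin they gave 3693, 146 and 0 instead of 6259. In the block, only replicate numbers 1 and 2 held both an SCI mouse and a control, which left little to test a difference. Its loss of calls is therefore no measure of how firm a call is. The cause under the other settings was not tested. Between treatments, 17 genes were called, and 37 with DESeq2, 1 with all 3 groups in 1 fit, 11 with the stricter filter, 8 with voom and 8 with the replicate block. The block tested numbers that do not pair the mice, since same-numbered mice of the SCI groups correlated at only -0.194 to 0.142. Requiring TPM above 1 in every condition moved the split to 1279 higher and 1115 lower with vehicle, from 3195 and 1594, and to 1806 and 1887 with atorvastatin, from 4003 and 2256. With limma on log2(TPM + 1) it was 3763 and 689, and 5078 and 1238, and with voom group weights 15 and 116, and 18 and 128. Correlated pairs fell from 2 to 0 on log2(TPM + 1).

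Directions that turned were those of Tac2 with vehicle (0.38 and 0.39 with limma on TPM, 0.19 with voom) and with atorvastatin (0.12 and 0.12 with limma on TPM). Calca turned with vehicle (0.17 and 0.18 with limma, 0.28 with voom, 0.13 with the block), with atorvastatin (0.24, 0.25, 0.42 and 0.50 in that order) and between treatments (-0.0034 with the stricter filter).

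With each mouse left out, peptide genes called ran from 1 to 4 with vehicle and from 4 to 7 with atorvastatin, and all genes called from 3839 to 7806, from 5582 to 9826 and, between treatments, from 5 to 32. Log2 fold changes with vehicle ran from -0.45 to 0.049 for Tac1, -0.72 to 1.13 for Tac2, -0.58 to 0.49 for Npy, -0.79 to 1.51 for Calca, -0.27 to 10.82 for Pdyn, 0.62 to 11.01 for Nts and -1.82 to 0.047 for Cck. With atorvastatin they ran from -1.01 to 0.84 for Tac2, -0.79 to 0.29 for Npy, -0.77 to 1.53 for Calca, -0.33 to 10.80 for Pdyn and 0.59 to 11.02 for Nts. Between treatments they ran from -0.14 to 0.18 for Calca, -0.34 to 0.11 for Grp and -0.15 to 0.046 for Nts. The upper values of Pdyn and Nts come from fits in which the 1 control left had 0 counts and are no measure of size.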

Other observations

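Of 13 other tested neuropeptide genes, 4 were called higher with vehicle and 3 with atorvastatin, and none lower. Over all tested genes, 19.9% and 24.9% were called higher, and 9.91% and 14% lower. Crh, Nmb and Vip, which encode corticotropin-releasing hormone, neuromedin B and vasoactive intestinal peptide, had 0 counts in both controls, and Calcb, the near copy of Calca, had 14 and 0. Their means in SCI + Vehicle were between 1.61 CPM for Vip and 4.69 CPM for Calcb. Between treatments 12 of the 13 had lower means with atorvastatin, and none was called.

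Counts and TPM of the same gene did not always keep 1 ratio across mice. The ratio of TPM to CPM differed 3.10-fold between the lowest and highest SCI mouse for Tac1, 3.08-fold for Grp and 2.48-fold for Npy, against 1.17-fold to 1.41-fold for the other 7 genes.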
